A study of Mus musculus with 6 samples.

Results

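The transcripts of the proteasome were followed in hind leg muscle of 3 untrained Con mice and 3 treadmill-trained EX mice. Members were all rows of the deposited table whose gene symbol starts with Psm, followed by a letter from a to g and a digit, which gave 49 of 16759 genes. The mice were male C57BL/6J, 8 weeks old at the start, with no genetic change named. EX mice completed 6 weeks of treadmill running in daily sessions of 60 min, 5 per week, covering 22 km each, and tissue was taken 24 h after the final session. Con mice did not run. All mice were perfused with PBS, the hind leg muscles were taken without a statement of which, and fat between the muscles was removed. Total counts ranged from 13845362 to 16240431 per library, with 1 library per mouse. The 6 muscle fibre markers summed to 141500-149900 CPM (counts scaled to library size) in Con and 153100-161400 in EX, so the labelled tissue and its defining transcripts matched. The p-values below measure the spread between these mice.

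The proteasome is the protease that degrades most ubiquitin-tagged proteins in the cell. Its barrel-shaped core is built of rings of alpha subunits (Psma), which form the gate, and rings of beta subunits (Psmb), which carry the active sites. A cap of ATPases (Psmc) and non-ATPase subunits (Psmd) binds the ubiquitin tag, removes it and feeds the unfolded substrate into the barrel. Other activators (Psme) can take the place of that cap, and dedicated chaperones (Psmg and part of Psmd) build the particle. In skeletal muscle the proteasome removes sarcomeric proteins, and its transcripts are known to rise together with muscle-specific ubiquitin ligases during wasting.

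Of the 49 members, 8 belong to the alpha ring, 10 to the beta ring, 6 to the ATPase cap, 14 to the non-ATPase cap, 6 to the activators and inhibitor and 4 to the assembly chaperones. The last, Psmc3ip, matched the rule by name, but it encodes a partner in meiotic recombination and is not a subunit, so 48 proteasome genes remained. A mean of at least 1 FPKM (fragments scaled to transcript length and library size) over the 6 libraries was required for testing, and 47 members met it. The 2 others were the testis subunit Psma8, with 1 count in Con replicate 1 and 0 counts in the other libraries, and Psme2b, a near copy of Psme2, whose mean level was 0.393 FPKM. The thymus subunit Psmb11 was not analysed here.

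The subunits of the particle were abundant, and their spread within a library differed between the groups of subunits. On the FPKM scale, which corrects for transcript length, the 7 tested alpha subunits had mean levels from 98.2 for Psma1 to 241 for Psma6, and the highest exceeded the lowest 2.16- to 3.08-fold within each library. The 7 constitutive beta subunits lay between 131 for Psmb1 and 369.9 FPKM for Psmb7, a spread of 2.73- to 2.9-fold within a library. The 6 ATPases lay between 79.0 for Psmc4 and 172 FPKM for Psmc3, a spread of 1.99- to 2.27-fold within a library. The 11 built-in non-ATPase subunits ranged from 60.01 for Psmd14 to 266 FPKM for Psmd8, and their spread was wider, at 3.83- to 5.52-fold within a library. In all, 33 of the 47 tested members had a mean of at least 50 FPKM.

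The factors that build, open or modify the particle were mostly measured at lower levels per length, with Psme4 within the range of the cap subunits. Psmd5, Psmd9 and Psmd10, which escort the ATPases during assembly, had mean levels of 13.98, 10.99 and 10.1 FPKM. The alpha ring chaperones had mean levels of 10.95 (Psmg1), 34.3 (Psmg2), 12.9 (Psmg3) and 5.30 FPKM (Psmg4). Among the activators the mean level was 54.9 FPKM for Psme1, 36.3 for Psme2, 28.3 for the nuclear activator Psme3 and 68.7 for the large activator Psme4. Psmf1, a core-binding protein first described as an inhibitor, had 6.96 FPKM. The 3 immunoproteasome subunits, which replace catalytic beta subunits after interferon signals, had 9.95 (Psmb8), 5.17 (Psmb9) and 9.58 FPKM (Psmb10).

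**Figure D1:**
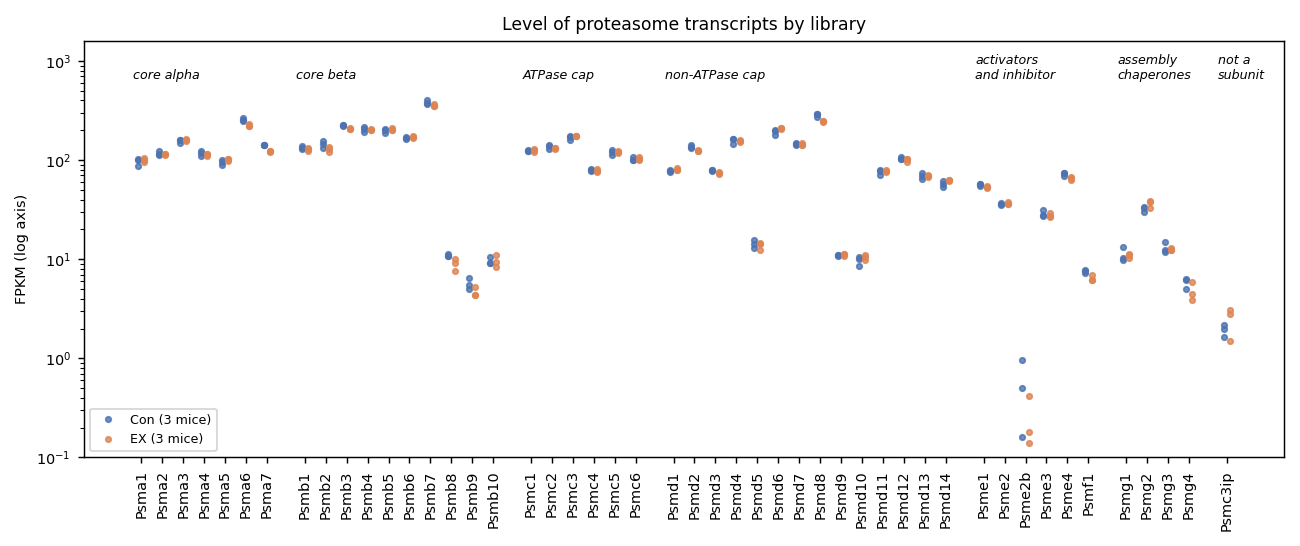
Level of each proteasome transcript in FPKM (vertical log axis) by gene, with 1 point per library for 3 Con and 3 EX mice, and genes ordered by their place in the particle. Psma8, with a mean of 0.01 FPKM, is not drawn. Core and cap subunits form a band above 50 FPKM, while the immunoproteasome subunits, the assembly helpers and Psmf1 lie under 50 FPKM, and Con and EX points lie close together for most genes.

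The comparison of EX with Con asks how moderate-intensity training altered these transcripts. Differences were small and went both ways. By edgeR's quasi-likelihood test, 9 of the 47 tested members (19.1%) passed an adjusted p of 0.05, beside 17.9% of the 10883 genes tested. Psmg2, Psmd14, Psmd6, Psma5 and Psmd1 rose, beside 9.11% of all genes tested that were higher. Psmf1, Psmd8, Psma7 and Psma6 fell, beside 8.8% of all genes tested that were lower. These shares were close to the background. In 17 members (36.2%) the CPM of the 3 EX mice did not overlap those of the 3 Con mice, 12 with EX higher and 5 with EX lower, beside 33.7% of all genes tested. A change of at least 0.2 on the log2 scale, which is 1.15-fold, was fitted for 6 of the 47 members, beside 20.8% of all genes tested. Psmc3ip, which is not a subunit, was among these 6, and without it the count was 5 of 46. Without Psmc3ip the share past the threshold was 19.6%, and the share without overlap was 37.0%.

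The median log2 fold change of the members was 0.04, beside -0.00093 over all genes tested, and the median size of the change without its sign was 0.08, beside 0.10. The summed CPM of all 49 rows was 5121 ± 45.1 in Con and 5172 ± 52.8 in EX (SD, n = 3), a difference of 0.988%. The direction of this total turned with the scale, since the summed FPKM was 4833, 4899 and 4891 in Con and 4700, 4737 and 4768 in EX, lower in EX without overlap. Members were measured with less error than most genes, with a median standard error of 0.04 against 0.07 on the log2 scale. Of the 38 tested members that missed the threshold, 25 had positive and 13 negative fitted changes, and for 26 of them the 95% interval lay within 0.2 on both sides of 0. For those 26 a change above 1.15-fold lay outside the interval. In bulk muscle, fewer cells of a type and less RNA per cell cannot be told apart.

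**Figure D2:**
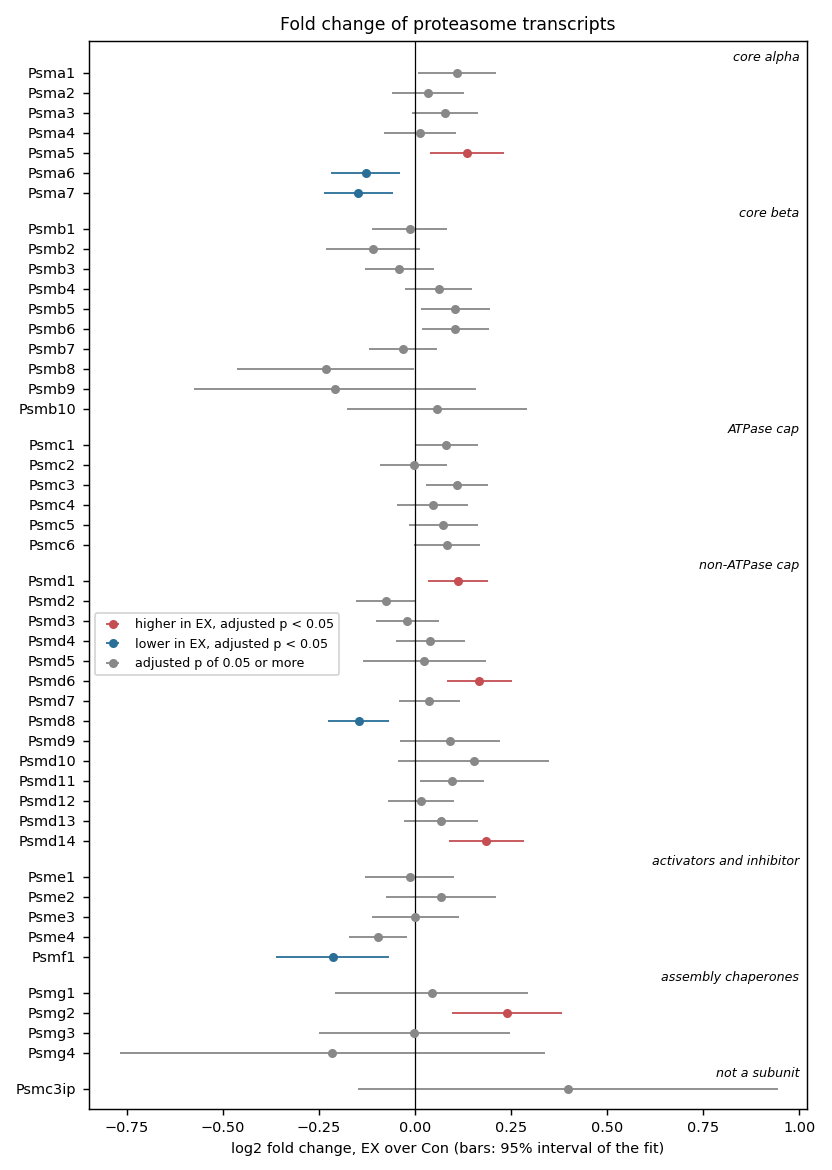
Fitted log2 fold change of EX over Con (horizontal axis) for the 47 tested members, grouped by place in the particle, with points for the estimate and bars for the 95% interval. The 5 members that rose and the 4 that fell lie between -0.21 and 0.24.

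Both the scale and the test bore on these calls. DESeq2 on the same counts called 2 members higher and 1 lower, and these were Psmd14, Psmd6 and Psmd8. With limma on log2(FPKM + 0.1), 0 members were called higher and 4 lower (3 were higher at an unadjusted p under 0.05), and on TPM (a length-scaled unit with an equal total in every library) 0 were higher and 8 lower (0 higher at an unadjusted p under 0.05). On these scales the median of all genes tested also shifted, to -0.06 for FPKM and -0.09 for TPM, and of all calls 28.4% and 16.8% were higher, beside 50.8% with edgeR on counts. Relative to the median of all genes, the members' median stayed between 0.03 and 0.05 in all 17 fits. None of the 9 called members changed sign in any of the 16 alternative fits.

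The lid of the cap held the clearest single changes, and they ran in opposite directions. Psmd14 (Entrez 59029) encodes the metalloprotease that cuts the ubiquitin chain off a substrate as it enters. It was at 64.4, 69.0 and 72.5 CPM in the Con mice and 78.5, 77.4 and 78.6 CPM in the EX mice. All 3 EX values were above all Con values, and the EX mice were close to each other. This was a log2 fold change of 0.19 ± 0.05 (SE, adjusted p = 0.00676), an increase of 13.7%. Psmd6 (Entrez 66413) is a lid scaffold that touches the ATPase ring. It was at 180, 198 and 199 CPM in Con and 215, 216 and 217 CPM in EX, again without overlap. Its log2 fold change was 0.17 ± 0.04 (SE, adjusted p = 0.00429). Both stayed past the threshold without any one library, and both missed it with limma on uncentred FPKM or on TPM, where their log2 changes were 0.13 and 0.11 on FPKM and 0.10 and 0.08 on TPM.

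Psmd8 (Entrez 57296), the lid subunit whose arrival completes lid assembly, went the other way. Its values were 347, 338 and 316 CPM in Con and 294, 306 and 304 CPM in EX. The lowest Con mouse lay above the highest EX mouse. The decrease was -0.15 ± 0.04 on the log2 scale (SE, adjusted p = 0.00791), and 14 of the 16 alternative fits called it. Without EX replicate 1 its adjusted p was 0.0525 at a log2 change of -0.13. Psmd8 was also the most abundant cap subunit per length, at 285 FPKM in Con and 247 FPKM in EX.

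The 250 bases before the RefSeq start site (build GRCm38.p6) are shown for these 3 lid genes because they were the members that DESeq2 also called. Capitals mark CCAAT, read on the opposite strand as ATTGG, a box bound by the factor NF-Y. Of the 3 stretches only that of Psmd14 held it, at chr2:61711444-61711693 on the plus strand, while Psmd6 lies at chr14:14120946-14121195 and Psmd8 at chr7:29180674-29180923, both on the minus strand.
Psmd14: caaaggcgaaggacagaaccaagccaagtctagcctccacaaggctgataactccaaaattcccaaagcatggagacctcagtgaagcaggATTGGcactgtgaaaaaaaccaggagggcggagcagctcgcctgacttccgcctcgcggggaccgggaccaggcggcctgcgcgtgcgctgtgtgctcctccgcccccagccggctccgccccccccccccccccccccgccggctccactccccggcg
Psmd6: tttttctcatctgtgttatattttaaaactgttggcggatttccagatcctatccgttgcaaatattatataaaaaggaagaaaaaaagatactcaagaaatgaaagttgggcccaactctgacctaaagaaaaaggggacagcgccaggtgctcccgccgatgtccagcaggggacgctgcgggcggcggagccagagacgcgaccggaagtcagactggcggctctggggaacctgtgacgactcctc
Psmd8: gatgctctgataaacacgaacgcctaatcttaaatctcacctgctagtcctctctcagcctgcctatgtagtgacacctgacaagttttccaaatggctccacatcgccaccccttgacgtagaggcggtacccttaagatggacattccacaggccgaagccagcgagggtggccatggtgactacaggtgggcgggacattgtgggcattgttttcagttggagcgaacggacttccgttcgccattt

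Promoters were at hand for 41 of the 49 members, 44 windows of 250 bases before to 50 bases after a start site. CCAAT on either strand was in 14 of these windows (31.8%), beside 37.4% of all 32851 promoters, so the box was not more frequent in members. Of the called members, Psmd14, Psma6 and Psma7 had it. GC content of the printed stretches was 66.8% for Psmd14, 50.0% for Psmd6 and 52.8% for Psmd8.

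Among the other cap subunits, Psmd1, a large scaffold of the cap's base, was the only further one to pass. Psmd1 (Entrez 70247) was at 222, 230 and 223 CPM in Con and 238, 253 and 238 CPM in EX. The groups did not overlap, yet the log2 fold change of 0.11 ± 0.04 (SE, adjusted p = 0.0443) was close to the threshold and was called in 2 of the 16 alternative fits. Its adjusted p was over the threshold when any one library but EX replicate 1 was left out, with 0.0731, 0.0695 and 0.1 on leaving out Con replicates 1, 2 and 3, 0.234 on leaving out EX replicate 2 (log2 change 0.08) and 0.0807 on leaving out EX replicate 3. Psmd2, the companion scaffold where shuttle factors and deubiquitinases dock, had a log2 change of -0.08 (adjusted p = 0.168), and limma called it lower on uncentred FPKM (-0.13, adjusted p = 0.0463 and 0.0459 with the smaller and larger pseudocount) and on TPM (-0.17, adjusted p = 0.0166). Psmd7, the partner of Psmd14, had 0.04 (adjusted p = 0.566), and the ubiquitin receptor Psmd4 had 0.04 (adjusted p = 0.58). The lid subunit Psmd11, at 123, 131 and 130 CPM in Con and 134, 137 and 139 CPM in EX, had no overlap between groups and a log2 change of 0.10 (adjusted p = 0.11).

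Over the 14 non-ATPase members, 3 rose and 1 fell, beside 9.11% and 8.8% of all genes tested. In this group 11 had positive and 3 negative fitted changes, and the median log2 change was 0.05. That median was -0.00275 with limma on log2(FPKM + 0.1) and -0.04 on TPM. The escorts of assembly Psmd5, Psmd9 and Psmd10 had log2 changes of 0.02, 0.09 and 0.15, with adjusted p-values of 0.875, 0.362 and 0.296. Psmd9 was at 24.7, 24.0 and 24.1 CPM in Con and 26.0, 25.3 and 26.2 CPM in EX, so its groups did not overlap.

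No gene of the ATPase cap passed the threshold. Of its 6 genes, 5 had positive fitted changes, from 0.05 for Psmc4 to 0.11 for Psmc3, and Psmc2 was at -0.00347. By edgeR 0 passed the threshold and 1 had an unadjusted p under 0.05, and DESeq2 gave the same 2 counts. Psmc3, the most abundant ATPase, was at 207, 226 and 220 CPM in Con and 232, 236 and 238 CPM in EX. Its groups did not overlap and its adjusted p was 0.0516. Without Con replicate 2 it was called (adjusted p = 0.0447, log2 change 0.14). Psmc1 was at 144.0, 143.8 and 143.1 CPM in Con and 154.7, 147.8 and 153.2 CPM in EX, also without overlap (log2 change 0.08, adjusted p = 0.164). The summed CPM of the 6 genes was 828, 845 and 839 in Con and 878, 877 and 881 in EX, so all EX mice lay above all Con mice, with 4.93% between the means. Their summed FPKM overlapped, at 713.5, 735.7 and 742.0 in Con and 741.8, 727.5 and 735.4 in EX. The median log2 change of the group was 0.08 here, 0.02 with limma on FPKM and -0.02 on TPM, so its sign depended on the scale.

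The alpha ring held opposite changes. Psma5 (Entrez 26442) was at 80.2, 84.9 and 87.0 CPM in Con and 88.1, 95.2 and 93.9 CPM in EX. The groups were separate, with Con replicate 3 and EX replicate 1 nearly level. The log2 fold change was 0.14 ± 0.05 (SE, adjusted p = 0.0438), and 4 of the 16 alternative fits called it. Leaving out Con replicate 1 gave an adjusted p of 0.15, Con replicate 2 gave 0.0961, EX replicate 2 gave 0.173 and EX replicate 3 gave 0.158.

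Psma7 (Entrez 26444), whose place Psma8 takes in the testis, was at 89.5, 88.7 and 87.2 CPM in Con and 78.2, 80.2 and 81.2 CPM in EX. Each group was tight and the groups were well apart. The log2 fold change was -0.15 ± 0.04 (SE, adjusted p = 0.0175), and 13 of the 16 alternative fits called it. It missed the threshold when Con replicate 2 (adjusted p = 0.0529) or EX replicate 1 (0.0686) was left out. Psma6 (Entrez 26443), the most abundant alpha subunit per length, was at 180, 168 and 162 CPM in Con and 151, 162 and 153 CPM in EX. EX replicate 2 overlapped Con replicate 3, and Con replicate 1 was the highest of all. The log2 fold change was -0.13 ± 0.04 (SE, adjusted p = 0.0422), called in 9 of the 16 alternative fits. Omitting Con replicate 1 gave an adjusted p of 0.141, Con replicate 2 gave 0.0632, EX replicate 1 gave 0.163 and EX replicate 3 gave 0.155.

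The 4 other tested alpha subunits, Psma1, Psma2, Psma3 and Psma4, had positive fitted log2 changes between 0.01 and 0.11 and did not pass. Psma1 was at 81.1, 91.7 and 91.9 CPM in Con and 93.5, 92.7 and 99.8 CPM in EX, which did not overlap (adjusted p = 0.131). The summed CPM of the alpha ring was 745 ± 9.86 in Con and 749 ± 16.3 in EX (SD, n = 3), a difference of 0.413% that was smaller than the SD of either group. On the FPKM scale the sum was 971.5, 988.2 and 984.5 in Con and 923.1, 940.9 and 945.4 in EX, lower in EX without overlap.

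**Figure D3:**
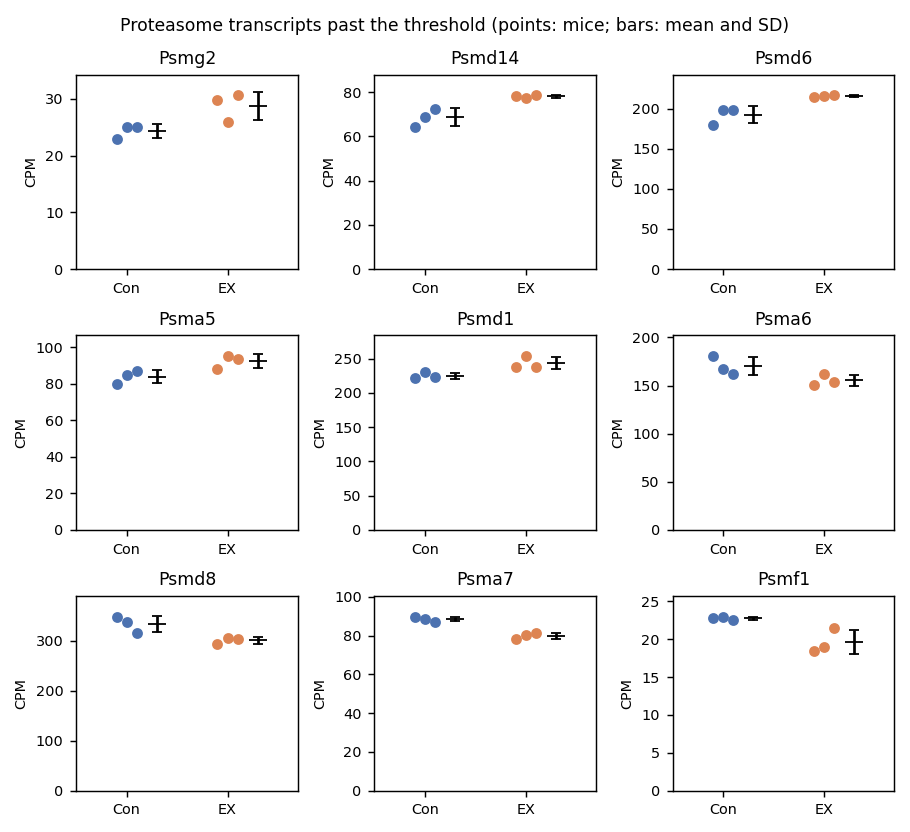
CPM (vertical axis, from 0) of the 9 members past the threshold, 1 panel per gene, with a point for each of 3 Con and 3 EX mice and a bar for the mean and SD. The groups are separate in 8 panels, and in Psma6 EX replicate 2 overlaps Con replicate 3.

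None of the 10 beta subunits passed the threshold with edgeR, and 3 had an unadjusted p under 0.05. DESeq2 also called 0, with 2 at an unadjusted p under 0.05, while limma on TPM called Psmb3 and Psmb8 lower. Leaving out Con replicate 3 called Psmb2 lower by edgeR (log2 change -0.19, adjusted p = 0.0194), against -0.11 (adjusted p = 0.224) with all 6 libraries. Of the 3 constitutive catalytic subunits, Psmb5, which carries the chymotrypsin-like site, was at 103, 110 and 109 CPM in Con and 112, 115 and 119 CPM in EX. Its groups did not overlap, and the log2 change was 0.10 (adjusted p = 0.0959). Psmb6, with the caspase-like site, was at 117, 119 and 114 CPM in Con and 122, 130 and 124 CPM in EX. Here too the groups were separate, with a log2 change of 0.10 (adjusted p = 0.0859). Psmb7, with the trypsin-like site, was at 236, 221 and 206 CPM in Con and 211, 214 and 222 CPM in EX, which overlapped (log2 change -0.03, 95% interval -0.12 to 0.06).

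The inducible counterparts of these 3 subunits were scarce. Psmb8, which replaces Psmb5, was at 9.76, 9.61 and 9.72 CPM in Con and 8.39, 9.36 and 6.99 CPM in EX. All EX values were under the Con values, and EX mice were more scattered than Con mice. The log2 change was -0.23 with a 95% interval of -0.46 to -0.00351 (adjusted p = 0.156). Without EX replicate 3, the lowest mouse, it was -0.13. Limma on TPM was the single alternative fit that called Psmb8. Psmb9, which replaces Psmb6, was at 3.44, 2.74 and 2.95 CPM in Con and 2.40, 2.93 and 2.54 CPM in EX. These overlapped, with a log2 change of -0.21 and an interval of -0.57 to 0.16. Psmb10, which replaces Psmb7, was at 8.68, 8.46 and 9.60 CPM in Con and 7.95, 10.7 and 9.21 CPM in EX, with a log2 change of 0.06 and an interval of -0.18 to 0.29. At mean counts of 139, 43.7 and 141 per library, these 3 intervals were wider than those of the constitutive partners.

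The level of each inducible subunit relative to its constitutive partner was computed within each library from FPKM. The ratio of Psmb8 to Psmb5 was 5.77%, 5.33% and 5.40% in Con and 4.53%, 4.97% and 3.58% in EX, without overlap. The ratio of Psmb9 to Psmb6 was 3.90%, 2.99% and 3.32% in Con and 2.59%, 2.99% and 2.58% in EX, where the highest EX mouse was level with the lowest Con mouse. The ratio of Psmb10 to Psmb7 was 2.28%, 2.40% and 2.87% in Con and 2.38%, 3.08% and 2.57% in EX, fully interleaved. These ratios are a description and carry no test.

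**Figure D4:**
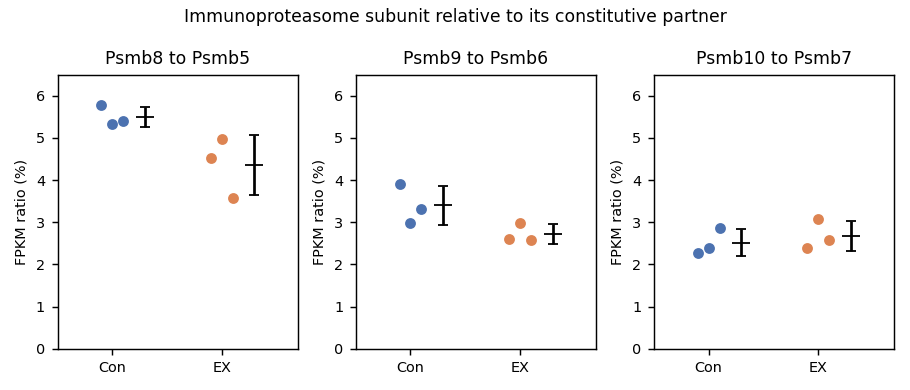
FPKM of each immunoproteasome subunit as a percentage of its constitutive partner (vertical axis), with 1 point per mouse and a bar for the mean and SD, for 3 Con and 3 EX mice. Psmb8 relative to Psmb5 averages 5.50% in Con and 4.36% in EX without overlap, whereas the points of the other pairs interleave or touch.

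Immunoproteasome transcripts are also made by cells other than muscle fibres. The 8 macrophage markers summed to 41.3-45.5 CPM in Con and 72.3-77.6 CPM in EX, with 5 of the 6 tested markers higher. The 9 markers of T, B, NK and dendritic cells summed to 2.80-3.30 CPM in Con and 2.61-4.04 CPM in EX, none reached 1 FPKM, Cd3e was at 0 in EX and Nkg7 at 0 in Con. The 5 endothelial markers summed to 546-562 CPM in Con and 471-495 CPM in EX, with 3 lower. The part of these cells in the values of Psmb8, Psmb9 and Psmb10 was not tested.

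Of the other activators, none passed the threshold by edgeR. Psme1 and Psme2, which form the interferon-induced ring, had log2 changes of -0.01 (95% interval -0.13 to 0.10) and 0.07 (-0.08 to 0.21). Psme3 had 0.00014 (-0.11 to 0.11). Psme4 was at 415, 441 and 438 CPM in Con and 412, 392 and 406 CPM in EX. All EX mice were under all Con mice, EX replicate 1 only narrowly, and the log2 change was -0.10 (adjusted p = 0.0684). It was called in 4 of the 16 alternative fits, without Con replicate 1 (adjusted p = 0.00581, log2 change -0.13), with totals without the 20 most abundant genes (0.0212), with a filter at a mean of 5 FPKM (0.0307) and with limma on TPM (0.0309). Counts of Psme2 and Psme2b held fractions, and the reads of these near copies may have been split between them.

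Psmf1 (Entrez 228769) fell. It was at 22.7, 22.9 and 22.6 CPM in Con and 18.5, 18.9 and 21.4 CPM in EX. The Con mice were nearly equal, and EX replicate 3 lay nearest to them. The log2 fold change was -0.21 ± 0.07 (SE, adjusted p = 0.0366), a decrease to 0.862 of the Con level, and 7 of the 16 alternative fits called it. It was lost on leaving out Con replicate 2 (adjusted p = 0.0947), Con replicate 3 (0.0633), EX replicate 1 (0.152) or EX replicate 2 (0.132).

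Psmg2 (Entrez 107047), which pairs with Psmg1 to seat the alpha subunits in the first ring, had the largest fold change of the 9 called members. It was at 22.9, 25.1 and 25.1 CPM in Con and 29.8, 26.0 and 30.6 CPM in EX. EX replicate 2 stood just above the Con mice and the other EX mice further up. On the log2 scale the change was 0.24 ± 0.07 (SE, adjusted p = 0.0159), called in 8 of the 16 alternative fits. The call was lost on omitting Con replicate 1 (adjusted p = 0.0545), EX replicate 1 (0.0745) or EX replicate 3 (0.116). Its partner Psmg1 was at 9.47, 6.93 and 7.09 CPM in Con and 8.07, 7.64 and 8.32 CPM in EX, with a log2 change of 0.04 and a 95% interval of -0.21 to 0.29. The second pair of ring chaperones had log2 changes of -0.00256 (Psmg3) and -0.22 (Psmg4, adjusted p = 0.645). Psmg4 had a mean of 17.7 counts per library, and its interval ran from -0.77 to 0.34.

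**Figure D5:**
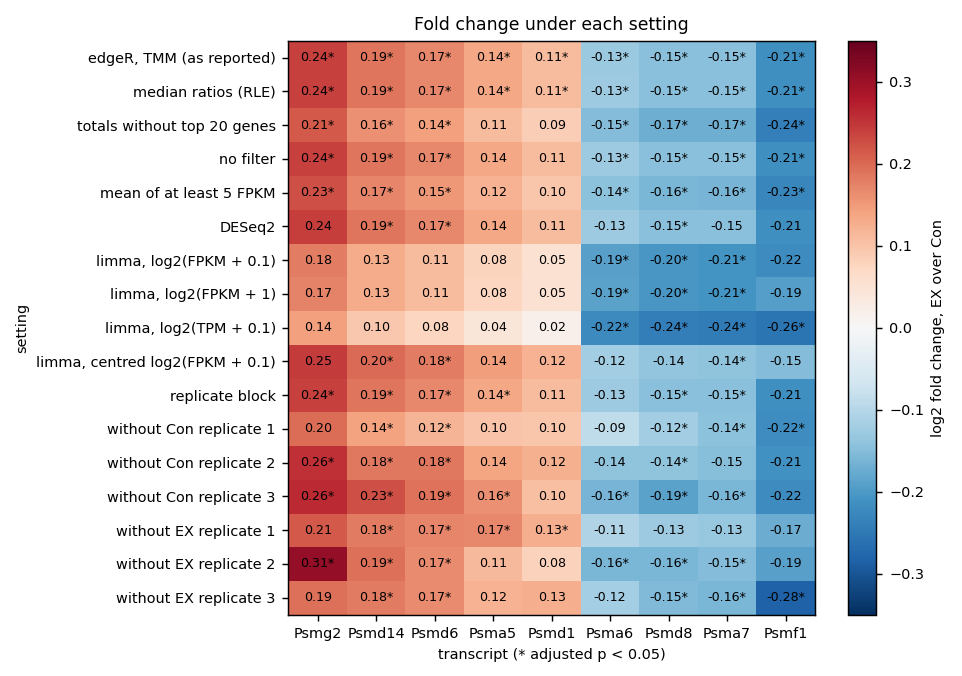
Log2 fold change of the 9 called members (columns) under the reported fit and 16 alternative fits (rows), coloured from lower (blue) to higher (red) in EX, with a star at an adjusted p under 0.05. No column changes sign. Psmd14, Psmd6, Psmd8 and Psma7 keep a star in 13 or 14 of the 16 alternatives, and Psmd1 in 2.

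Transcripts that act on the proteasome were taken from a list of 41 genes, of which 38 were tested. Of these, 1 rose and 8 fell, beside 9.11% higher and 8.8% lower over all genes tested, with a median log2 change of -0.00109. Of the 6 tested subunits and helpers outside the naming rule (Adrm1, Sem1, Pomp, Ecpas, Usp14 and Uchl5), 0 passed by edgeR and 3 had an unadjusted p under 0.05, while DESeq2 gave 0 and 0. Of the 8 shuttle and unfolding factors, which bring tagged proteins to the cap, 0 passed by edgeR and 1 had an unadjusted p under 0.05, while DESeq2 gave 0 and 0. Their log2 changes ran from -0.13 for Ufd1 to 0.07 for Vcp.

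The factor known to drive proteasome genes together is Nfe2l1, which the protease Ddi2 releases by cleavage. Nfe2l1 was at 599, 550 and 550 CPM in Con and 501, 543 and 518 CPM in EX. The groups did not overlap, with a log2 change of -0.12 (adjusted p = 0.0304), called in 11 of 16 alternative fits and lost when Con replicate 1 or either of EX replicate 1 and EX replicate 3 was omitted, with an adjusted p of at most 0.195 over the alternatives. Ddi2 was at 48.2, 48.7 and 44.7 CPM in Con and 30.7, 33.6 and 35.4 CPM in EX. It fell by 0.505 on the log2 scale (adjusted p = 3.47e-07) and passed in all 16 alternative fits, but its counts were fractional in all 6 libraries, so its value rests on how reads were assigned. Beside these, the 14 subunits of the core without the immunoproteasome and Psma8 had a median log2 change of 0.02.

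Nfe2l1 and its relatives bind the antioxidant response element, whose core was searched as TGACNNNGC on both strands. It was in 6 of the 44 member promoters (13.6%), beside 12.4% of all promoters, and in none of the promoters at hand for called members. The 6 windows are shown to let the core be compared, with the matching letters in capitals, and all are from RefSeq on GRCm38.p6. They lie at chr14:54618023-54618053 on the minus strand for Psmb5 and, on the plus strand, at chr11:70525337-70525367 for Psmb6, chr5:123228148-123228178 for Psmd9, chr14:45329586-45329616 for Psmc6, chr11:107479278-107479300 for Psmd12 and chr11:30771757-30771787 for Psme4. In Psmb5, Psmb6 and Psmd9 the core reads forward.
Psmb5: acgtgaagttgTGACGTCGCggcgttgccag
Psmb6: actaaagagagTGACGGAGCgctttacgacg
Psmd9: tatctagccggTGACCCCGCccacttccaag
Psmc6: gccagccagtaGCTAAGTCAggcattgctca
Psmd12: tctGCTGTGTCAcatttgccccc
Psme4: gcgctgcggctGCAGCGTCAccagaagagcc

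The core ended 38 bases before the start site in Psmb5, 22 bases in Psmd9, 218 bases in Psmc6 and 238 bases in Psmd12, touched the start site in Psmb6 and overlapped it in Psme4. The 6 genes had log2 changes of 0.10 (Psmb5), 0.10 (Psmb6), 0.09 (Psmd9), 0.08 (Psmc6), 0.02 (Psmd12) and -0.10 (Psme4), and none passed the threshold. A match of these letters is a description and not a bound site.

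Among the genes of ubiquitin supply, Rps27a, which yields ubiquitin and a ribosomal protein, was at 143.3, 142.8 and 143.1 CPM in Con and 165.6, 160.5 and 163.5 CPM in EX, and rose by a log2 change of 0.19 (adjusted p = 0.000777). It passed in 15 of the 16 alternative fits and missed on TPM (log2 change 0.09, adjusted p = 0.112). Ubb, which encodes ubiquitin repeats, did not pass. Of the 7 muscle ligases 3 fell, beside 8.8% of all genes tested. Trim63, which tags sarcomeric proteins, was at 495, 462 and 482 CPM in Con and 377, 410 and 382 CPM in EX (log2 change -0.30, adjusted p = 1.6e-06). Fbxo32, the other classic ligase of wasting, was at 672, 662 and 666 CPM in Con and 598, 584 and 584 CPM in EX (log2 change -0.18, adjusted p = 0.00025), and Fbxo40 had a log2 change of -0.195 (adjusted p = 7.93e-05). In these ligases no EX mouse reached a Con mouse, and all 3 passed in all 16 alternative fits. Nedd4, Traf6, Stub1 and Fbxo30 did not pass.

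The partners of the immunoproteasome in antigen presentation had a median log2 change of -0.17 over 7 tested genes, 2 of them lower, beside 8.8% of all genes tested. B2m, the light chain of MHC class I, was at 119, 102 and 101 CPM in Con and 95.2, 86.7 and 90.2 CPM in EX (log2 change -0.235, adjusted p = 0.00234), called in all 16 alternative fits. Tap1, a subunit of the peptide transporter, was at 7.53, 9.35 and 9.28 CPM in Con and 6.75, 7.45 and 5.97 CPM in EX (log2 change -0.38, adjusted p = 0.0282). It passed in 9 of the 15 alternative fits that held it, and missed the threshold when any of Con replicate 2, Con replicate 3, EX replicate 1 and EX replicate 3 was left out, with an adjusted p of at most 0.158 over the alternatives. Nlrc5, an activator of MHC class I genes and named here after its values were seen, lay under the filter. It was at 4.38, 5.66 and 5.71 CPM in Con and 2.90, 2.48 and 2.41 CPM in EX, a log2 change of -1.02 (adjusted p = 6.74e-06) in the edgeR fit without a filter. The marker sums of macrophages and endothelium given above differed between the groups and that of leukocytes overlapped, and their part in these genes was not tested.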

How the data were processed

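RNA from hind leg muscle of 3 Con and 3 EX mice was sequenced by the authors as 150 bp paired reads on DNBseq. The paper names HISAT and GRCm39, whereas the submitters' processing notes name GRCm38.p6, featureCounts, cutadapt and MultiQC, so the build stays uncertain and no coordinate was taken from the table. Estimated counts, FPKM and TPM for every gene and library were deposited in 1 table. The FPKM and TPM are the authors' own normalization. Between 4.18% and 4.44% of the count values in a library were fractional. The 6 columns of group means were not used.

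Counts were rounded and tested with edgeR 4.0.16 (glmQLFit and glmQLFTest, TMM, R 4.3.3) over 10883 genes whose mean reached 1 FPKM, with Benjamini-Hochberg adjustment over all of them and a threshold of 0.05. CPM are counts scaled by TMM library sizes, with factors of 0.971 to 1.03. The fit was tested on simulated data. Limma 3.58.1, DESeq2 1.42.0 and changes of scaling, filter and library set were alternatives. Fold changes of limma are on the log2(value + 0.1) scale, or on log2(value + 1) where the larger pseudocount is named. Both scales understate low genes. Limma on FPKM centred on each library's median was added after seeing the data.

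Values in every library are given for members past the threshold, for the immunoproteasome subunits with their partners and for members whose groups stood apart, and for at most 8 genes of the related list. The members and all lists were chosen with earlier results of these data known. Promoters and motif windows came from RefSeq on GRCm38.p6, and protein sequences were not used here. Some listed genes are not reported here. Depth limits the precision of the scarce members, and intervals come from the fit over 3 mice per group.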

Additional observations from a re-analysis of the deposited data

How the results depend on the processing

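With 3 mice per group, small fold changes were called or lost as the settings changed, and the cause was not tested. The 5 members called higher became 3 with totals without the 20 most abundant genes, 3 without a filter, 3 with a filter at a mean of 5 FPKM, 2 with DESeq2, 0 with limma on log2(FPKM + 0.1) (3 at an unadjusted p under 0.05), 0 with a pseudocount of 1 (3), 0 on TPM (0) and 2 on centred FPKM. The 4 called lower became 1 with DESeq2, 8 on TPM and 1 on centred FPKM. Leaving out each library in turn gave 2 to 4 called higher and 0 (without EX replicate 1) to 4 called lower, where 5 had an unadjusted p under 0.05 in the lower direction. Over all genes tested, calls were 991 higher and 958 lower in the reported fit, 643 and 585 with DESeq2, 772 and 1259 with totals without the most abundant genes, 411 and 1037 with limma on log2(FPKM + 0.1), 411 and 1032 with a pseudocount of 1, 340 and 1684 on TPM and 745 and 466 on centred FPKM.

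The median log2 change of the members was 0.0156 with totals without the most abundant genes, 0.0241 with the filter at a mean of 5 FPKM, -0.0172 with limma on log2(FPKM + 0.1), -0.0171 with a pseudocount of 1, -0.0526 on TPM and 0.0261 to 0.0525 without 1 library. Of the 47 tested members, 18 changed sign on TPM and 10 on FPKM with either pseudocount, none of them among the 9 called. Psmb10 was at -0.00815 and -0.00696 on FPKM with the smaller and larger pseudocount, -0.0437 on TPM and -0.0568 to 0.158 without 1 library. Psme2 was at -0.0198 on TPM. Psme3 was at -0.0239 with totals without the most abundant genes, -0.014 with the filter at a mean of 5 FPKM, -0.000876 with DESeq2, -0.0566 and -0.0549 on FPKM, -0.0918 on TPM and -0.0458 to 0.0703 without 1 library. Psmb7 ranged from -0.0809 to 0.0137 and Psme1 from -0.0378 to 0.0167 without 1 library.

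A replicate block gave 4 members higher and 2 lower. Mice of the same number correlated at -0.0787, -0.0495 and -0.0117 in their deviations from the group means and no mouse correlated best with its own number, so the numbers were not treated as pairs.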

Other observations

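Markers of other cells in the muscle samples also differed between the groups, and their part in the proteasome values was not tested. The 6 fibroblast and tendon markers summed to 668-703 CPM in Con and 899.8-914 CPM in EX, and 3 of them were higher by edgeR, among them Col1a1 with a log2 change of 0.86 and Col3a1 with 0.76. The others of that list that did not pass were Pdgfra at -0.14, Dcn at -0.10 and Scx at 0.05. Of the 4 adipocyte markers 3 were tested and all 3 were higher, and the sum was 4.02-4.64 CPM in Con and 10.6-12.9 CPM in EX. The erythroid sum was 182-197 CPM in Con and 200-217 CPM in EX, with 1 of 3 markers higher. Among the muscle fibre markers Acta1 and Mylpf were higher, with log2 changes of 0.22 and 0.30.

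Psmc3ip, the row that matched the naming rule without being a subunit, had 15, 22 and 20 counts in Con and 32, 16 and 30 counts in EX, with a log2 change of 0.40 (adjusted p = 0.332, edgeR). Psme2b had 5.13, 11.1 and 1.82 estimated counts in Con and 2.12, 5.07 and 1.62 in EX, which overlap.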
